A study of Mus musculus with 8 samples.

Results

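A set of 7 genes for potassium channels opened by intracellular calcium or sodium were followed in the PrL tissue of SNI and sham mice: Kcnma1, Kcnmb4, Kcnn1, Kcnn2, Kcnn3, Kcnt1 and Kcnt2. They were chosen by symbol, with a rule that uses no measured value, but with earlier results of these data known. All 7 were among the 14765 genes of the count table. PrL is read here as the prelimbic area of the medial prefrontal cortex, and SNI as spared nerve injury, an operation on the leg nerves used to model chronic pain, since the labels give only the abbreviations. The SNI group had 4 libraries and the sham group had 4, all labelled as brain of C57 genotype. The labels give no age, no time after surgery and no number of mice per library, so the p-values rest on library-to-library spread alone, part of which may be technical.

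These channels feed the ion entry of a spike back onto the membrane. Kcnma1 encodes the pore of the BK channel, which opens on depolarization and calcium together and shortens the action potential, and Kcnmb4 encodes the beta4 subunit that accompanies it in neurons and slows its gating. Kcnn1, Kcnn2 and Kcnn3 encode SK1, SK2 and SK3, which sense calcium through bound calmodulin rather than voltage and carry part of the afterhyperpolarization that spaces spikes. Kcnt1 (Slack) and Kcnt2 (Slick) encode channels opened by sodium that follows bursts of firing.

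Of the 7 genes, Kcnn3 rose in SNI and none fell, at an adjusted p under 0.05 in edgeR's quasi-likelihood test. In the same test 5.02% of all 13911 genes tested were called, 2.15% higher and 2.87% lower in SNI. The CPM of the SNI and sham libraries did not overlap for 2 of the 7 genes, Kcnn3 and Kcnma1, against 12.7% of all genes tested (5.64% with SNI above sham and 7.02% with SNI below). An unadjusted p under 0.05 was reached by 3 of the 7 (Kcnn3, Kcnmb4 and Kcnma1), against 21.1% of all genes. The median log2 fold change of the 7 was 0.03, beside 0.01 over all genes. All 7 passed the low-count filter, and the lowest count of any of them in a library was 235.

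Kcnn3 was the only member called, and the RefSeq window around its annotated start is shown for that reason. It spans chr3:89519914-89520213 on the plus strand of GRCm38.p6, with 250 bases before the start and 50 after it. Capitals mark the only match to TATAA, 32 bases before the start, and the only match to CCAAT, 72 bases before it.
Kcnn3 promoter: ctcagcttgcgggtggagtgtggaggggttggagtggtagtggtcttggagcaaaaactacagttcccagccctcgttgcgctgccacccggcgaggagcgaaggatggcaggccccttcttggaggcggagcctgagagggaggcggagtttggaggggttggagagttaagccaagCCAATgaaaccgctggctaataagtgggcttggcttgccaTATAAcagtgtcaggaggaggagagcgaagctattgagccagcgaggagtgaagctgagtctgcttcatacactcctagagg
Both strands were searched for TATAA, for CCAAT and for GGGCGG, which did not overlap each other in this window, and GGGCGG had no match. TATAA was found in 24.9% and CCAAT in 37.4% of the 32851 mouse windows of 300 bases. RefSeq windows were matched for 5 of the 7 genes (6 windows), and no match to TATAA was found in those of Kcnma1, Kcnmb4, Kcnn1 and Kcnt2. GGGCGG, found in 35.7% of all windows, had 4 matches in the Kcnmb4 window and 3 in the Kcnma1 window. The GC content of these windows was 79% and 78%, beside 57.7% for Kcnn3 and a median of 52.7%. It was 62.7% for Kcnt2, and 62.3% and 64.3% for the Kcnn1 windows. The Kcnn1 window of 64.3% GC also had 2 matches to GGGCGG and 1 to CCAAT, and the Kcnt2 window had 2 to CCAAT. These matches are descriptions of letters and no factor was measured. Kcnn2 and Kcnt1 were not matched.

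Among the SK channel genes, Kcnn3 was higher in SNI while Kcnn1 and Kcnn2 did not pass the test. Kcnn3 lies on chromosome 3 from 89520164 to 89675132 (GRCm38, GENCODE M21) and overlaps no other annotated gene. Its counts were 367, 534, 351 and 450 in SNI replicates 1 to 4, against 235, 311, 283 and 263 in sham replicates 1 to 4. Scaled to library size by TMM, these were 22.7, 26.5, 23.4 and 27.1 CPM, the usual depth-normalised read count, in SNI libraries and 15.9, 20.6, 17.9 and 15.1 CPM in sham libraries. Every SNI library lay above every sham library, with SNI replicates 4 and 2 highest and sham replicate 2 closest to the SNI range. The means were 24.9 ± 2.19 CPM in SNI and 17.4 ± 2.47 CPM in sham (SD, n = 4 libraries each). The log2 fold change was 0.52 ± 0.115 (SE), or 1.43-fold with a 95% interval of 1.21 to 1.70, and the edgeR adjusted p was 0.0178. At the lowest count of 235, counting alone gives a relative error of 6.52%.

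The Kcnn3 call depended on which libraries entered, more than its size did. Without sham replicate 1 the log2 fold change was 0.48 and the edgeR adjusted p 0.0539. Without SNI replicates 2 and 3 these were 0.52 and 0.0892, and without SNI replicates 2 and 4 they were 0.41 and 0.133. With a striatal marker value per library as a covariate they were 0.51 ± 0.169 (SE) and 0.236, in a fit that called 30 genes in all. In the other 15 of 19 alternatives Kcnn3 was called, and in all 19 the log2 fold change was between 0.41 and 0.61. Several of these calls lay close to the threshold. The edgeR adjusted p was 0.0429, 0.0405 and 0.0438 when SNI replicate 2, 3 or 4 was left out alone. Leaving out sham replicate 3 or 4 alone gave 0.0487 and 0.0473. It was 0.0175 without SNI replicate 1 and 0.0112 without sham replicate 2.

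**Figure D1:**
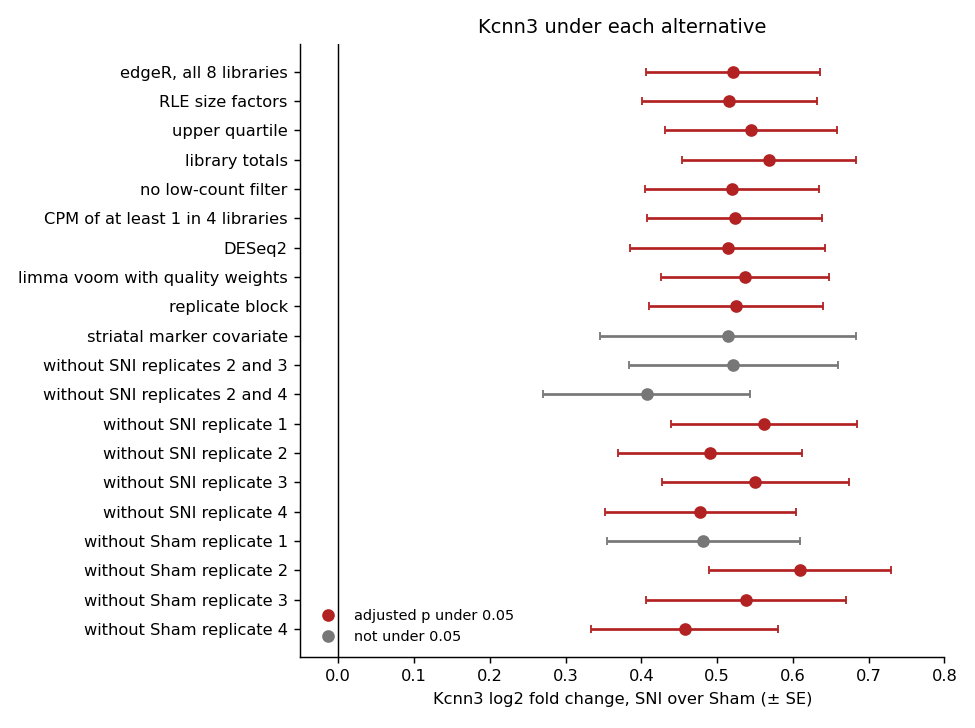
Kcnn3 log2 fold change, SNI over sham (x axis, points with SE), under edgeR with all 8 libraries and under each of 19 alternatives (rows). Red points passed an adjusted p of 0.05 and grey points did not; all values lie between 0.41 and 0.61, and the 4 grey ones are the striatal covariate and the fits without SNI replicates 2 and 3, SNI replicates 2 and 4, or sham replicate 1.

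Kcnn1, whose SK1 product is found widely in cortical neurons, lies on chromosome 8 from 70842049 to 70863258. It had 22.9, 17.98, 22.7 and 21.9 CPM in SNI replicates 1 to 4 and 20.3, 20.5, 22.4 and 20.5 CPM in sham replicates 1 to 4. The groups overlapped, with SNI replicate 2 below all other libraries. SNI differed from sham by a log2 fold change of 0.03 ± 0.104 (SE, edgeR adjusted p = 0.905), and the 95% interval ran from 0.876-fold to 1.19-fold.

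Kcnn2 encodes SK2, a channel of dendrites and spines, and lies on chromosome 18 from 45268860 to 45686024. It had 32.6, 24.2, 28.2 and 27.7 CPM in SNI replicates 1 to 4, and 31.0, 30.7, 29.8 and 28.2 CPM in sham replicates 1 to 4. SNI libraries spread on both sides of the sham range, with replicate 1 above it and replicate 2 farthest below. Its SD was 3.45 CPM in SNI and 1.29 CPM in sham (n = 4 libraries each). The log2 fold change was -0.09 ± 0.0990 (SE, edgeR adjusted p = 0.644), with a 95% interval of 0.813-fold to 1.09-fold.

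The balance among the 3 SK genes was then described per length, as each gene's share of their summed CPM per kb of exon. Kcnn3 took 18.9%, 26.1%, 20.4% and 23.4% in SNI replicates 1 to 4, against 15.1%, 18.7%, 16.2% and 14.9% in sham replicates 1 to 4. The SNI shares all lay above the sham shares, though SNI replicate 1 and sham replicate 2 nearly met. Kcnn2 took 34.8 ± 2.10% in SNI and 39.2 ± 1.40% in sham (SD, n = 4 libraries each), with SNI replicate 1 (37.9%) just above the lowest sham library (37.7%). Kcnn1 had the largest share per length in both groups, at 43.0 ± 1.94% in SNI and 44.6 ± 1.91% in sham. That rank depends on the division by annotated exon length. In mean CPM Kcnn2 was highest of the 3 (28.2 in SNI, 29.9 in sham), with Kcnn1 at 21.4 in SNI and 20.9 in sham. These shares use the same Kcnn3 counts as the call above and are no second line of evidence. The summed CPM of the 3 genes was 74.4 ± 4.23 in SNI and 68.2 ± 3.53 in sham (SD, n = 4 libraries each).

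The BK genes lay on opposite sides of 0, and neither passed the test. Kcnma1, the pore subunit, lies on chromosome 14 from 23289431 to 24014491. It had 229, 249, 229 and 226 CPM in SNI replicates 1 to 4, against 249, 252, 293 and 255 CPM in sham replicates 1 to 4. All SNI libraries lay below all sham libraries, but SNI replicate 2 (248.8 CPM) came within 1 CPM of sham replicate 1 (249.3 CPM), and sham replicate 3 stood above the rest. The means were 233 ± 10.6 CPM in SNI and 262 ± 20.7 CPM in sham (SD, n = 4 libraries each). The log2 fold change was -0.17 ± 0.0792 (SE), with a 95% interval of 0.791-fold to 0.999-fold and an edgeR adjusted p of 0.232. Without sham replicate 3 the log2 fold change was -0.11 (adjusted p = 0.580).

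Kcnmb4, the beta4 subunit, lies on chromosome 10 from 116417861 to 116473878. It had 25.4, 26.0, 24.8 and 22.4 CPM in SNI replicates 1 to 4, against 19.7, 20.3, 23.3 and 21.2 CPM in sham replicates 1 to 4. The groups overlapped through SNI replicate 4, which lay below sham replicate 3, while the other 3 SNI libraries lay above all sham libraries. The means were 24.7 ± 1.56 CPM in SNI and 21.1 ± 1.54 CPM in sham (SD, n = 4 libraries each). The log2 fold change was 0.22 ± 0.0964 (SE), with a 95% interval of 1.01-fold to 1.34-fold and an edgeR adjusted p of 0.199.

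Taken as a ratio within each library, which does not depend on library scaling, the BK auxiliary and pore genes separated the groups. The log2 ratio of Kcnmb4 to Kcnma1 CPM was -3.17, -3.26, -3.20 and -3.33 in SNI replicates 1 to 4, against -3.66, -3.63, -3.66 and -3.58 in sham replicates 1 to 4. The ratio was higher in every SNI library than in any sham library, and the gap between the groups was wider than the range within either. The log2 fold changes of Kcnmb4 (0.22) and Kcnma1 (-0.17) have opposite signs, so they add in the ratio. The share of all gene pairs whose ratio separates the groups in this way was not counted. The means were -3.24 ± 0.0709 in SNI and -3.63 ± 0.0342 in sham (SD, n = 4 libraries each), a difference of 0.39 on the log2 scale. No test was run on this ratio, which was set up with earlier results of these data known, and neither gene passed by itself. The ratio uses the same Kcnmb4 and Kcnma1 counts as above and is no second line of evidence. Of the other ratios formed, Kcnn3 to Kcnn2 was also higher in every SNI library, as Kcnn3 was by itself. Kcnt1 to Kcnt2 overlapped between the groups. A ratio shows unequal levels of the 2 transcripts and does not say which of them moved.

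**Figure D2:**
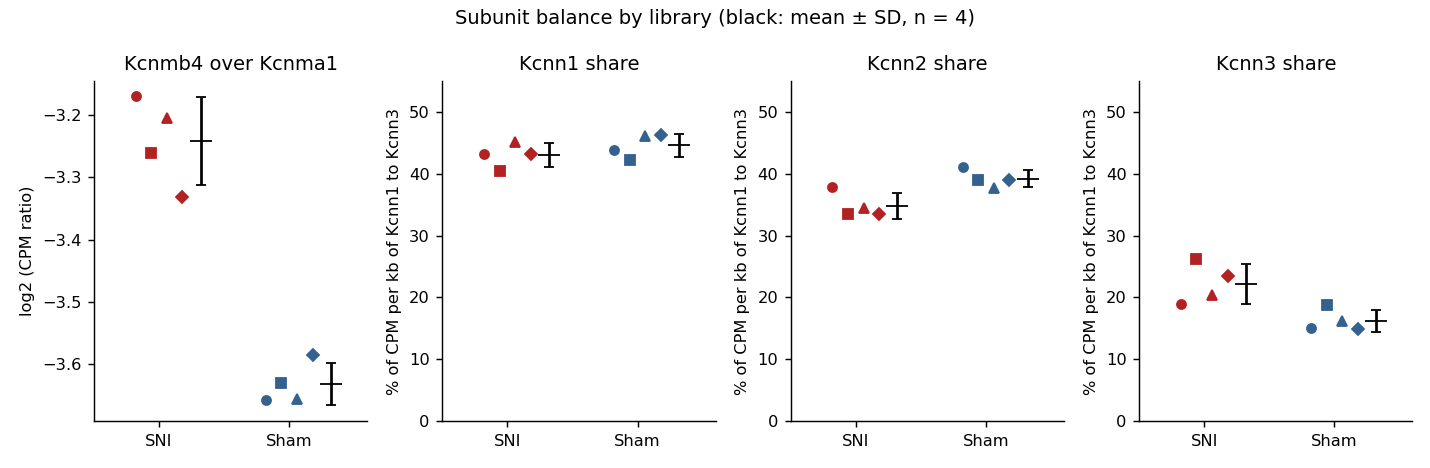
Left, log2 ratio of Kcnmb4 to Kcnma1 CPM; right, share of Kcnn1, Kcnn2 and Kcnn3 in their summed CPM per kb of exon (y axes), in each SNI and sham library (points; marker shape gives the replicate number) with mean ± SD (n = 4). The ratio lies between -3.33 and -3.17 in SNI and between -3.66 and -3.58 in sham, and the Kcnn3 share averages 22.2% in SNI and 16.2% in sham.

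The sodium-activated channel genes did not pass the test. Kcnt1 (Slack), on chromosome 2 from 25863734 to 25918273, had 109, 89.0, 115 and 101 CPM in SNI replicates 1 to 4, and 111, 104, 85.2 and 83.5 CPM in sham replicates 1 to 4. The groups overlapped almost wholly, with sham replicates 1 and 2 inside the SNI range and SNI replicates 1, 2 and 4 inside the sham range. Its log2 fold change was 0.11 ± 0.105 (SE, edgeR adjusted p = 0.573), and the 95% interval ran from 0.926-fold to 1.26-fold.

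Kcnt2 (Slick), on chromosome 1 from 140246158 to 140612067, had 36.7, 44.6, 34.3 and 40.7 CPM in SNI replicates 1 to 4, and 39.1, 36.5, 40.5 and 38.8 CPM in sham replicates 1 to 4. The sham values fell inside the SNI range, and SNI replicate 2 was highest. The log2 fold change was 0.02 ± 0.0924 (SE, edgeR adjusted p = 0.946), with a 95% interval of 0.882-fold to 1.16-fold. Its coefficient of variation was 11.6% in SNI and 4.35% in sham.

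**Figure D3:**
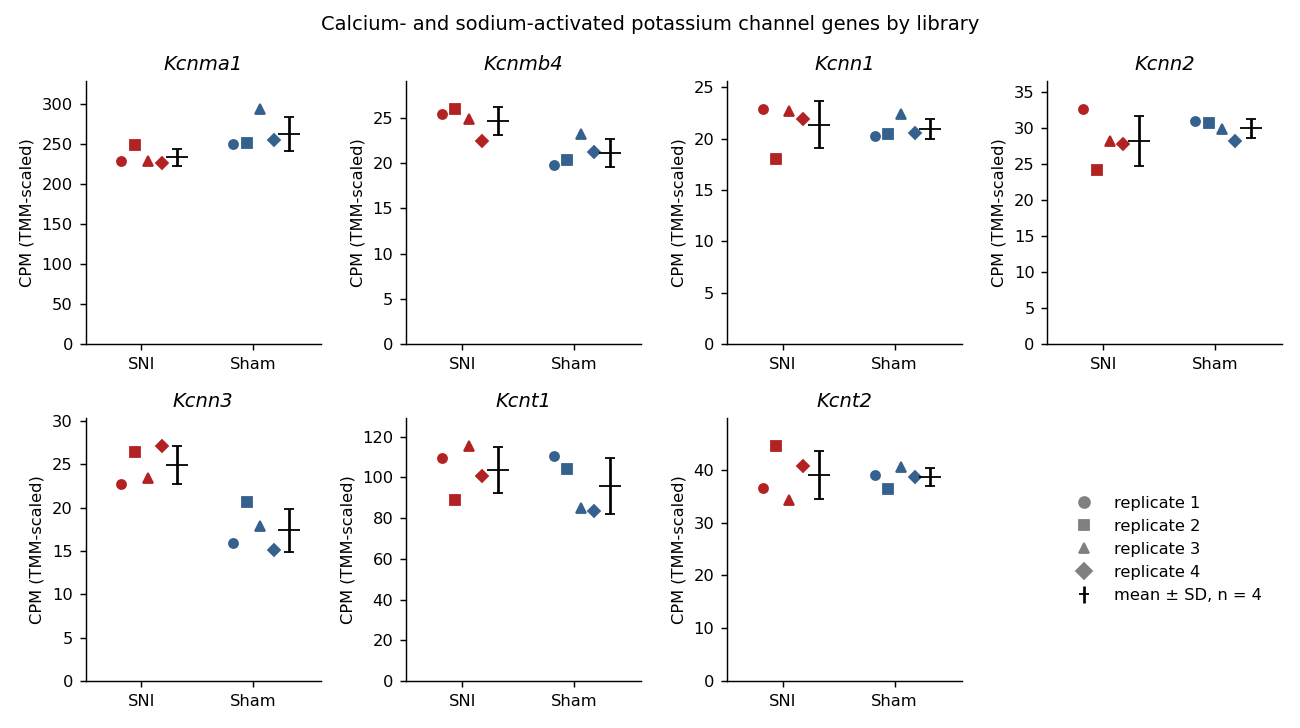
TMM-scaled CPM (y axes, starting at 0) of the 7 channel genes in each SNI and sham library (marker shape gives the replicate number), with mean ± SD (n = 4). The SNI points lie above all sham points for Kcnn3 (22.7 to 27.1 against 15.1 to 20.6 CPM) and below them for Kcnma1, and overlap them for the other 5 genes.

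Exons of Kcnma1, Kcnmb4, Kcnn1, Kcnn2 and Kcnt2 overlap exons of annotated genes on the opposite strand. The library chemistry keeps the strand, but no source used here says whether reads were counted by strand, so the values of these 5 genes are uncertain to that extent. Kcnn3 and Kcnt1 overlap no annotated gene.

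Set against each other per length, as CPM per kb of annotated exon, the 7 genes held the same order of means in both groups. From the highest these were Kcnma1 (13.7 ± 0.626 in SNI, 15.4 ± 1.22 in sham), Kcnt1 (10.9 ± 1.21 and 10.1 ± 1.42) and Kcnmb4 (7.42 ± 0.469 and 6.36 ± 0.463). Kcnt2 followed with 5.67 ± 0.655 in SNI and 5.62 ± 0.244 in sham, and Kcnn1 with 4.66 ± 0.500 in SNI and 4.56 ± 0.213 in sham. Kcnn2 (3.77 ± 0.462 in SNI, 4.01 ± 0.172 in sham) and Kcnn3 (2.38 ± 0.209 in SNI, 1.66 ± 0.236 in sham) were lowest (SD, n = 4 libraries each). In sham no neighbours in this order overlapped. In SNI the ranges of Kcnt2 and Kcnn1 met, and those of Kcnn1 and Kcnn2 overlapped. The length is that of all annotated exons together, and 38 transcripts of Kcnma1 are annotated against 2 of Kcnn3, so a gene with many alternative exons appears lower on this scale than its used transcripts would.

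**Figure D4:**
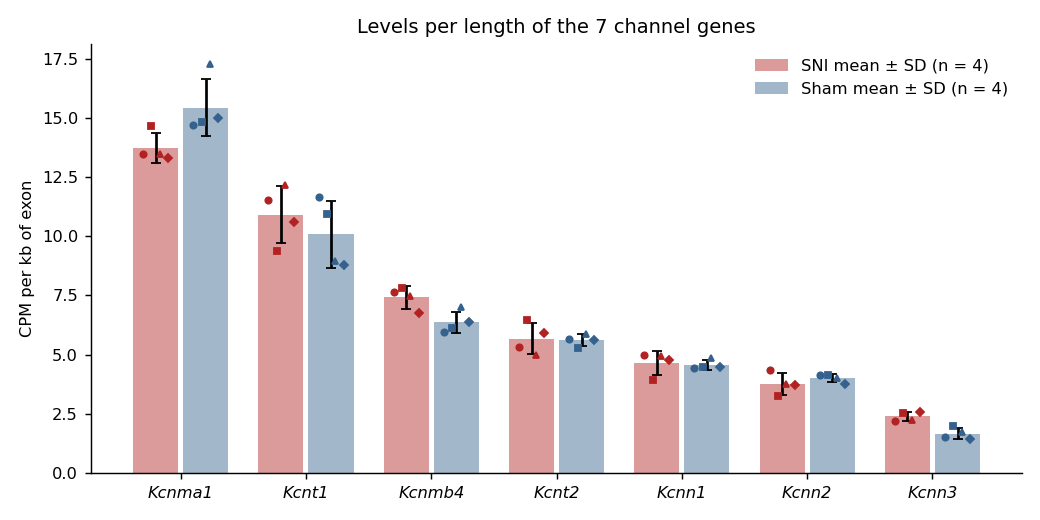
Mean CPM per kb of annotated exon (y axis, from 0; bars with SD, n = 4; points are libraries, marker shape gives the replicate number) of the 7 genes, SNI left and sham right. Kcnma1 is highest (13.7 in SNI, 15.4 in sham) and Kcnn3 lowest (2.38 in SNI, 1.66 in sham).

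Of the other subunits of these channel families, Lrrc55 fell and the rest did not pass or were not tested. Of 9 listed, 7 were in the table and 5 were tested, of which 0 rose and 1 fell, where 2.15% of all genes tested rose and 2.87% fell. Lrrc55, which encodes the BK gamma3 subunit, fell to 13.2 ± 0.864 CPM in SNI, against 19.6 ± 4.51 CPM in sham (SD, n = 4 libraries each). Its log2 fold change was -0.56 ± 0.145 (SE, edgeR adjusted p = 0.0359), and its SNI libraries all lay below its sham libraries. The call ended when any of 6 of the 8 libraries was left out (each SNI library and sham replicates 1 and 2; highest adjusted p = 0.117). Lrrc38 and Lrrc26, the gamma4 and gamma1 subunits, had log2 fold changes of -0.56 and -0.39 and did not pass. Kcnmb2 (beta2) averaged 3.57 CPM in SNI and 2.93 CPM in sham, and Kcnu1, a relative of the BK pore known from sperm, 3.83 CPM in SNI and 3.68 CPM in sham. Kcnmb1 and Kcnn4 did not pass the low-count filter, with means under 1 CPM, and Kcnmb3 and Lrrc52 had no row in the table.

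Among routes of calcium entry and release, 5 of 17 genes fell and 1 rose, where 2.87% of all genes tested fell and 2.15% rose. Their median log2 fold change was -0.12, beside 0.01 over all genes. The list was chosen with earlier results of these data known. The fallers were Cacna1i, a low-threshold T-type channel (-0.77), Cacna1a and Cacna1b, the P/Q-type and N-type channels of nerve terminals (-0.44 and -0.30), and the NMDA receptor subunits Grin2a and Grin2b (-0.43 and -0.41), all log2 fold changes. Ryr3, a ryanodine receptor that releases calcium from internal stores, rose to 40.1 ± 5.23 CPM in SNI, against 25.4 ± 5.06 CPM in sham (SD, n = 4 libraries each), with a log2 fold change of 0.66 ± 0.134 (SE, edgeR adjusted p = 0.0133). Cacna1b passed by little (edgeR adjusted p = 0.0498) and was not called without any of 7 libraries, all but SNI replicate 1 (highest 0.148). The call of Grin2b ended without SNI replicate 3, SNI replicate 4 or sham replicate 3 (highest 0.0848).

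Of 20 partners and regulators of these channels 1 fell and 0 rose (median log2 fold change -0.14), where 2.87% of all genes tested fell and 2.15% rose. Lingo1, a leucine-rich repeat membrane protein described as a partner of BK channels, fell to 335 ± 52.4 CPM in SNI, against 485 ± 38.8 CPM in sham (SD, n = 4 libraries each, edgeR adjusted p = 0.0100). Csnk2a2, a catalytic subunit of casein kinase 2, which sits on SK channels and lowers their calcium sensitivity, had a log2 fold change of -0.25 (edgeR adjusted p = 0.0529), and it passed with RLE scaling (0.0499), DESeq2 (0.0164) and voom (0.0430). Calm3, one of the calmodulin genes, had -0.32 (edgeR adjusted p = 0.0660), and it passed with DESeq2 (0.0139) and without SNI replicate 1 (0.0196). Of 9 voltage-gated and leak sodium channel genes, the route of sodium entry, 0 passed (median log2 fold change -0.19); Scn8a and Scn1a each had -0.25. Among the M-current genes, whose channels also restrain repetitive firing, Kcnq3 fell (log2 fold change -0.33, edgeR adjusted p = 0.0347), and Kcnq5 had -0.25 and did not pass. The Kcnq3 call ended without any of 6 libraries, all but SNI replicate 1 and sham replicate 2 (highest 0.140).

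**Figure D5:**
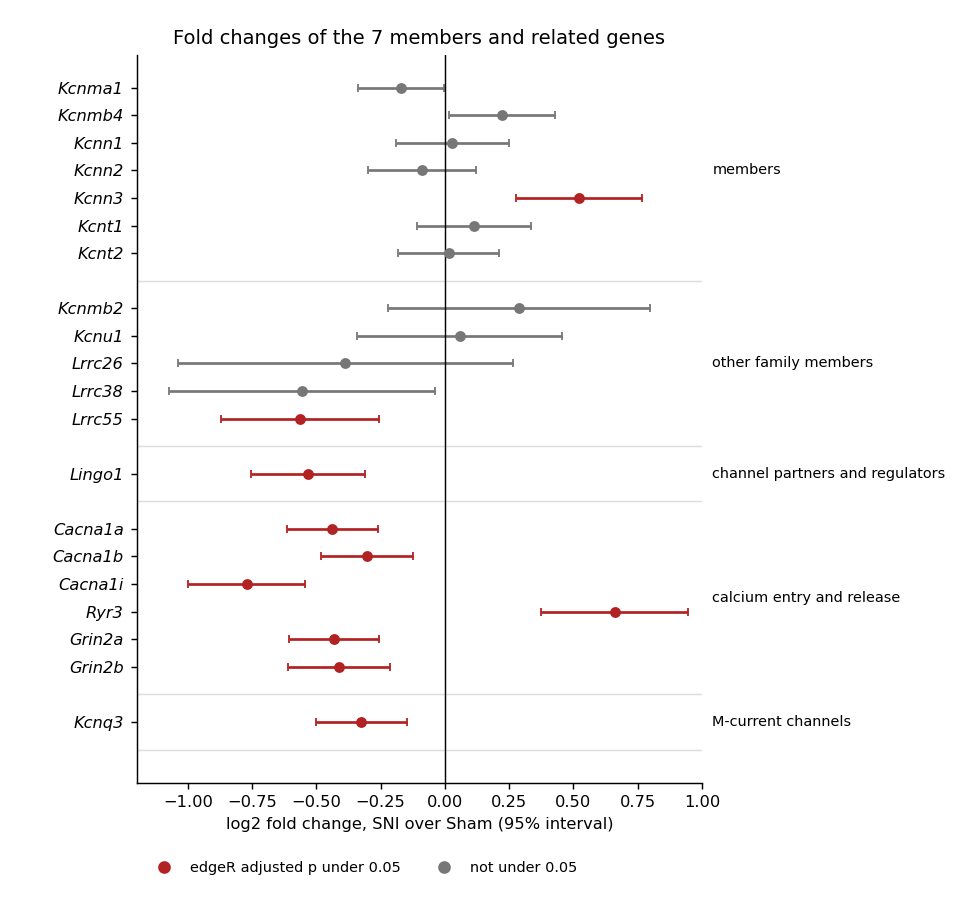
Log2 fold change, SNI over sham (x axis, with 95% intervals), of the 7 members, the 5 tested other family members and the called genes of 3 related lists; the sodium entry list had 0 called. Red marks an edgeR adjusted p under 0.05; Kcnn3 (0.52) and Ryr3 (0.66) are the called genes to the right of 0, and the other called genes lie to the left.

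In the other potassium channel families no gene was called higher. Over all genes tested 2.15% were called higher and 2.87% lower. Of 45 voltage-gated channel and subunit genes tested 8 fell (among them Kcnb2, Kcnh5, Kcnv1 and Kcnq3, which is also an M-current gene), with a median log2 fold change of -0.20. Of 11 inward rectifiers 1 fell, Kcnj3 (median -0.27), and of 9 two-pore channels 0 were called (median -0.09). The difference between these families and the 7 members, whose median was 0.03, was not tested.

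Markers of cell types moved between the groups as well. The summed CPM of 8 upper-layer neuron markers was 580 to 654 in SNI and 689 to 868 in sham, without overlap. That of 10 excitatory neuron markers was 3851 to 5373 in SNI and 5168 to 5944 in sham. The 10 striatal markers summed to 377, 901, 454 and 890 CPM in SNI replicates 1 to 4, and to 502, 272, 253 and 377 CPM in sham replicates 1 to 4. Kcnn3 was highest in replicates 4 and 2 within SNI (27.1 and 26.5 CPM) and in replicate 2 within sham (20.6 CPM). With the striatal value as a covariate it was not called (log2 fold change 0.51, edgeR adjusted p = 0.236). The 10 astrocyte markers ranged from 3891 to 5044 CPM in SNI and from 3984 to 4823 CPM in sham. The sums of 10 GABAergic markers (1046 to 1300 in SNI, 1147 to 1470 in sham), 10 oligodendrocyte markers (4435 to 7858 and 3173 to 7030), 6 oligodendrocyte precursor markers (276 to 379 and 303 to 382) and 10 endothelial and mural markers (301 to 447 and 304 to 392.3) overlapped between the groups. Deep-layer markers (9 of 10 in the table, Bcl11b having no row) summed to 489 to 566 CPM in SNI and 374 to 532 CPM in sham, and 10 microglial markers to 474 to 764 CPM in SNI and 423 to 513 CPM in sham. Choroid plexus and ependymal markers, of which 4 of 7 had a row (Folr1, Ccdc153 and Tmem212 had none), stood at 10.7 to 15.5 CPM in SNI and 5.25 to 7.40 CPM in sham. By the edgeR test 3 of 10 excitatory, 3 of 8 upper-layer and 1 of 6 oligodendrocyte precursor markers fell. In the same test 2 of 9 deep-layer, 2 of 10 microglial and 2 of 4 choroid plexus and ependymal markers rose. Over all genes tested 2.87% fell and 2.15% rose. None of the tested striatal, astrocyte, GABAergic, oligodendrocyte or endothelial and mural markers passed. Apart from the striatal covariate given above, the part of these markers in the values of the 7 genes was not tested, and in bulk tissue fewer cells of a type and less RNA per cell cannot be told apart.

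Genes whose pattern over the 8 libraries was most like each member were found by the root mean square difference of centred log2 CPM, among 10401 genes. For Kcnn3 these were Cachd1 and Pgm3, at 0.12 each, beside a median of 0.33 over all candidates. For Kcnma1 Zdhhc21 was closest (0.05, median 0.18), and for Kcnmb4 Rbm43 and Sparcl1 (0.05 each, median 0.20). Atp9a and Pes1 lay closest to Kcnn1, Farsa and Zfp428 to Kcnn2, Med12 and Npr2 to Kcnt1, and Chm and Scfd1 to Kcnt2, at 0.03 to 0.05. None of the genes named here for likeness was called between SNI and sham. The values share the same 8 libraries and their scaling.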

How the data were processed

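RNA of PrL tissue was sequenced in 4 SNI and 4 sham libraries made, per the labels' protocols, from poly(A)-selected RNA with a dUTP-marked second strand. The authors deposited whole-number read counts per gene symbol. Per the submitters' processing notes, fastp, HISAT2 and StringTie were used on GRCm38; no versions are listed, and the annotation, counting step and filter are not given in the sources used here. In the deposited table the smallest count was 1. Library totals were 14735602 to 19602487 counts, and chi-square per degree of freedom between same-group libraries was 7.77 to 29.7, so no library was a copy of another in its group.

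Genes passing filterByExpr (13911 of 14765) were scaled by TMM and tested with edgeR 4.0.16 in R 4.3.3 (robust quasi-likelihood F-test, two-sided, no covariate), with p-values adjusted by Benjamini-Hochberg over all genes tested and a threshold of 0.05. The SE is the size of the log2 fold change divided by the square root of F, and 95% intervals use its t distribution. Kilobases of exon came from GENCODE M21, where all 7 symbols matched. The script was tested on simulated counts. Alternatives were other scalings, other low-count filters, DESeq2 1.42.0, limma 3.58.1 (voom with quality weights), a replicate block, a striatal covariate and left-out libraries.

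All 7 genes were named whatever their values, with every called gene and the 3 of smallest p in each related list and the 2 most alike genes per member (mean log2 CPM of at least 3, prior count 2). A few genes taken by this rule are left out of the text. The members and lists were chosen with earlier results of these data known.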

Additional observations from a re-analysis of the deposited data

Results flagged for a closer look

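In 3 of the 14 groups of 4 libraries formed by the 7 genes, 1 library stood far from the others by Dixon's test, where chance flags about 1 in 20 groups. Kcnma1 was 249 CPM in SNI replicate 2, against 226 to 229 CPM in the other SNI libraries (gap over range 0.868). It was 293 CPM in sham replicate 3, against 249 to 255 CPM in the other sham libraries (0.879). Kcnn1 was 22.4 CPM in sham replicate 3, against 20.3 to 20.5 CPM in the other sham libraries (0.882).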

How the results depend on the processing

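The signs of Kcnn3, Kcnma1, Kcnmb4 and Kcnt1 were kept in all 19 alternatives, and no member other than Kcnn3 was called in any. The count of called members was 1, and 0 with the striatal covariate, without SNI replicates 2 and 3, with SNI replicates 2 and 4 left out, and without sham replicate 1. Kcnn3 had 0.51, 0.52 and 0.41 in the first 3 of these, and 0.46 to 0.61 with 1 library left out. Kcnn2 (-0.09) changed sign with the covariate (0.033), without SNI replicates 2 and 3 (0.012) and with SNI replicates 2 and 4 left out (0.022). Kcnt2 (0.02) had -0.12 with the covariate and without SNI replicates 2 and 4, and -0.055 to 0.072 with 1 library left out. Kcnn1 had -0.0060 to 0.11 with 1 library left out. The causes were not tested. Over all genes the 698 calls became 1153 with DESeq2, 30 with the covariate, 178 without SNI replicates 2 and 3, 438 once SNI replicates 2 and 4 were left out, and 258 to 858 with 1 library left out. Scaling by library totals gave 446 higher and 276 lower genes, against 299 and 399 with TMM. The SNI minus sham difference in the Kcnmb4 to Kcnma1 log2 ratio, 0.39, was 0.37 to 0.45 over the 10 sets of libraries that were left out. Same-numbered libraries did not deviate together (r of -0.15 to -0.01 over genes), so no pairing by number was seen, though a weak one could be missed. With a replicate block 518 genes were called and Kcnn3 remained called, but not Cacna1b and Kcnq3 (adjusted p = 0.0757 and 0.0700). Of the 9 called related genes, 5 kept the call whichever single library was left out and 0 kept it with the striatal covariate; there Lrrc26 had 0.077, against -0.39. Depth gave a counting error of at most 6.52% per member and library.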
